A study of Homo sapiens with 4 samples.

Results

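Transcripts of NFE2L2, which encodes the transcription factor NRF2, of its inhibitor KEAP1 and of 8 antioxidant genes were followed in 786-O cells with and without added PRDM16. The 10 genes were chosen by name for their role in the antioxidant response, and a locus was taken when any of the gene names it carries matched. All 10 were found, among 56753 loci in the table, and all 10 passed the filter on low values (a mean of at least 1 FPKM, the fragments counted per kilobase of transcript, scaled to the size of the library). NQO1, HMOX1, GCLM, TXNRD1, KEAP1 and SOD2 each had a locus of their own. NFE2L2, GCLC, SRXN1 and OSGIN1 were measured in loci that also carry other gene names, so those 4 values may include other transcripts.

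786-O is an established human line from a clear cell renal cell carcinoma, known to lack functional VHL. The cells were stably transduced with a control vector or with a lentivirus carrying PRDM16, a zinc finger regulator of transcription, and each group had 2 libraries made from total RNA. The question was how extra PRDM16 alters the transcriptome of these cells. Culture conditions were the standard ones and shared by both groups, while no source used here gives the promoter of the vector or the number of clones. Nothing in the labels says that the libraries of a group came from different cultures, so every p-value covers the spread between these libraries only, which may be technical.

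NRF2 is held at low levels by KEAP1, an adaptor that presents it to the CUL3 and RBX1 ubiquitin ligase. Oxidants and electrophiles modify cysteines of KEAP1, NRF2 then accumulates without needing more of its own mRNA, pairs with a small MAF protein and binds antioxidant response elements near its targets. The targets make glutathione (GCLC, GCLM), keep thioredoxin and peroxiredoxins reduced (TXNRD1, SRXN1), reduce quinones (NQO1) and break down heme (HMOX1). BACH1 competes for the same elements and is best known as a repressor of HMOX1. SOD2, the manganese superoxide dismutase of mitochondria, is also a well-known NF-kB target.

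The core of the antioxidant response element, TGACNNNGC, was looked for on both strands of RefSeq promoter windows (GRCh38.p14) of 300 bases, from 250 before to 50 after a transcript start. Windows existed for 9 of the 10 genes, all but HMOX1, and 3 of those 9 genes (GCLM, TXNRD1 and KEAP1) held the core, against 16.1% of all 27305 genes with a window. Counted by window, 4 of 15 held it, against 13.3% of 35116. The 6 matches are shown because they are the places in these windows where the letters of an NRF2 element occur. Capitals mark the core, each sequence is written so that the core reads 5′ to 3′, and positions count from the transcript start, with 1 as the first transcribed base.
GCLM, -34 to -26, chr1:93909446-93909474, plus strand: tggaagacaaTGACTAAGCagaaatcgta
TXNRD1 first start, -99 to -91, chr12:104215670-104215698, plus strand: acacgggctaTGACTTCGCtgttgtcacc
TXNRD1 first start, -8 to 1, chr12:104215761-104215789, minus strand: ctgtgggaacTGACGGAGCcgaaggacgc
TXNRD1 second start, -102 to -94, chr12:104286920-104286948, minus strand: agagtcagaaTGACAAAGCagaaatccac
KEAP1 second start, -54 to -46, chr19:10502807-10502835, minus strand: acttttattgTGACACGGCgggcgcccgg
KEAP1 second start, -31 to -23, chr19:10502784-10502812, plus strand: caggtcaccaTGACTAAGCagagccgggc
GCLM and the downstream KEAP1 match share the core TGACTAAGC, and none of the 6 cores holds the AP-1 letters TGANTCA. A match is only a description of the letters. NQO1, GCLC, SRXN1, OSGIN1, NFE2L2 and SOD2 had no match, which says only that these letters were not in their windows.

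PRDM16 was at 0.0157 and 0.234 FPKM in the control vector libraries and at 1225.6 and 1146.4 FPKM in the PRDM16 libraries, as labelled. Values summed to between 556213 and 574003 FPKM per library, and 23138 to 24490 loci were above 0. The lowest values put the other libraries at 1.17 to 1.39 times the depth of control vector replicate 1, with the absolute depth unknown. The highest relative depth (1.39), the lowest sum and the most loci above 0 were those of control vector replicate 2. Control vector replicate 2 stood apart: its median absolute deviation from the mean of a locus was 0.144 on the log2(FPKM + 1) scale, against 0.0638 to 0.101 in the other libraries. Of the 8 markers listed for renal epithelium and the carcinoma line, 7 had a locus of their own and summed to between 3720 and 3880 FPKM per library. Most of that sum was VIM (3329.8 to 3455.3 FPKM), so it says little about the other markers. LHX1 was near 0. Of the tested markers only PAX2 overlapped between the groups, while 20.3% (lower) and 21.1% (higher) of all tested loci were without overlap. None of the markers passed the test. The unadjusted limma p was under 0.05 for the KRT18 locus (0.01), CDH16 (0.0338) and EPCAM (0.0407), as it was for 6.12% of all tested loci. The share of these markers without overlap was not tested. VIM, PAX8, EPCAM and CDH16 were lower without overlap, with log2 changes of -0.03, -0.19, -0.45 and -0.47. KRT8 and the KRT18 locus, which has several names, were higher, at 0.15 and 0.39.

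The other marker lists were counted over loci with a single gene name. The 3 such leukocyte genes of 5 summed to 2.26 to 3.48 FPKM per library, nearly all of it CSF1R (2.11 to 3.31 FPKM), with PTPRC and CD14 near 0. The other leukocyte genes share loci that cannot be read for one gene: CD68 with EIF4A1 and SENP3 (362 to 477 FPKM) and CD163 with CD163L1 (13.9 to 18.1 FPKM). The 4 endothelial genes summed to 1.64 to 2.72 FPKM, mostly TIE1, with CDH5, PECAM1 and VWF near 0. The 4 fibroblast genes summed to 4.31 to 4.77 FPKM, mostly LUM and COL1A1, with DCN listed at 0. The part of these markers in the results was not tested.

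None of the 10 genes passed the test. In the limma fit over 13246 loci, which called 0.0226% of them at an adjusted p under 0.05, the members' adjusted p ran from 0.689 to 0.958 and none had an unadjusted p under 0.05 (6.12% of all tested loci did). The log2 changes lay between -0.16 and 0.20. Of the 10, 7 had a higher and 3 a lower mean with PRDM16, with a median log2 change of 0.12 beside 0.004 over all tested loci. In bulk RNA, fewer cells with a transcript and less of it per cell cannot be told apart. In 5 of the 10 genes (50%: NQO1, TXNRD1, HMOX1, SRXN1 and OSGIN1) the PRDM16 libraries were both above the higher control, beside 21.1% of all tested loci. NFE2L2 alone among the 10 (10%) was below the lower control in both, beside 20.3% of all tested loci. The genes were chosen with earlier results known, and these shares were not tested. With 2 libraries a group there are 3 splits, so an exact two-sided permutation test could not go below 0.333.

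**Figure D1:**
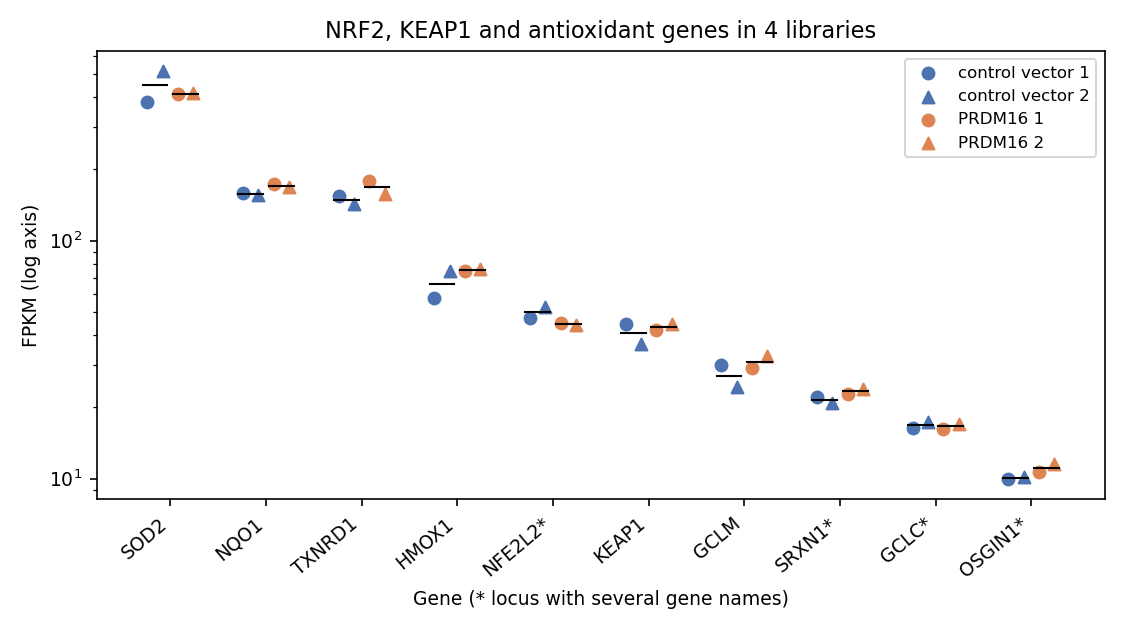
FPKM on a log axis for each of the 10 genes in the 2 control vector libraries (blue) and the 2 PRDM16 libraries (orange), with a bar at each group's mean and circles and triangles for replicates 1 and 2. SOD2 is the highest and the OSGIN1 locus the lowest, and the groups lie close together for every gene.

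The genes spanned a wide range of levels per length. SOD2, at 383 to 516 FPKM over the 4 libraries, exceeded 98.9% of the tested loci in mean level. NQO1 and TXNRD1 followed, with means over all libraries of 164 and 158 FPKM and overlapping ranges, above 95.4% and 95.2% of loci. HMOX1 came next at a mean of 70.7 FPKM. NFE2L2 (47.4 FPKM) and KEAP1 (42.1 FPKM) overlapped each other, so their levels were not told apart. GCLM, SRXN1, GCLC and OSGIN1 followed in that order, with ranges that did not overlap. The last of them, the OSGIN1 locus, had a mean of 10.6 FPKM, above 44.2% of loci. Places in this order that involve NFE2L2, SRXN1, GCLC or OSGIN1 rest on loci with several names.

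Among the regulators, NFE2L2 was at 47.4 and 52.7 FPKM with the control vector and at 45.3 and 44.1 FPKM with PRDM16. Both PRDM16 libraries were thus below both controls, by a margin that was narrow next to control vector replicate 1. The means were 50.1 ± 3.71 and 44.7 ± 0.826 FPKM (SD, n = 2 each), a log2 change of -0.16 (SE 0.10, 95% interval -0.41 to 0.10, limma adjusted p = 0.689). Leaving out control vector replicate 2 gave a log2 change of -0.08, and leaving out the other control gave -0.23. The locus also names AC074286.1, a long noncoding RNA. NFE2L2 is annotated on the minus strand of chromosome 2 at 177227595 to 177392697 (GENCODE 29, GRCh38), where it overlaps AGPS on the other strand. Whether the libraries kept strand is unknown, so reads from genes that overlap on opposite strands cannot be told apart.

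KEAP1 was at 44.7 and 36.9 FPKM with the control vector and at 42.1 and 44.8 FPKM with PRDM16. Only control vector replicate 2 was low, and the groups overlapped. The log2 change was 0.10 (SE 0.13, 95% interval -0.24 to 0.43, limma adjusted p = 0.793), and it was -0.04 without control vector replicate 2. KEAP1 lies on chromosome 19 at 10486120 to 10503741, minus strand, with AC011461.1 in an intron on the same strand.

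The rest of the control layer was also without a call. CUL3, the ligase scaffold, was at 48 and 40.2 FPKM against 47.3 and 51.2 FPKM, and its RING subunit RBX1 at 61.4 and 48.5 FPKM against 59.8 and 64.2 FPKM. Like KEAP1, both were lowest in control vector replicate 2, and their log2 changes of 0.16 and 0.18 were 0.03 and 0.01 without it. SQSTM1, which encodes p62, a scaffold that sequesters KEAP1, was at 326 and 458 FPKM against 398 and 373 FPKM, so its controls spanned the PRDM16 libraries. Its log2 change of -0.0032 was 0.24 without control vector replicate 2. BTRC, the adaptor of a KEAP1-independent route of NRF2 degradation, was at 8.38 to 9.34 FPKM throughout.

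Among DNA-binding partners and competitors, BACH1 (a locus that also names LINC00189) was at 7.83 and 8.38 FPKM with the control vector and at 6.82 and 6.49 FPKM with PRDM16. Its groups did not overlap, as in 1 of the 9 control genes, beside 20.3% of all tested loci that were lower and 21.1% that were higher without overlap. Its log2 change was -0.25 (SE 0.10, 95% interval -0.52 to 0.02, unadjusted p = 0.0601, limma adjusted p = 0.689). MAFF, a small MAF partner, was at 10.5 and 13.7 FPKM against 16.4 and 13.5 FPKM, with a log2 change of 0.29 (SE 0.17) in overlapping groups. Its value was 0.11 when control vector replicate 1 was left out and 0.47 when the other control was. MAFK and the MAFG locus, which also names SIRT7, had log2 changes of -0.06 and -0.09. NFE2L1, the related factor NRF1, was at 159.7 and 226 FPKM against 180.5 and 151 FPKM in a locus shared with AC004477.1, and its log2 change of -0.20 was 0.05 without control vector replicate 2.

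NQO1, which reduces quinones by transferring a pair of electrons, had the smallest standard error of the 10 genes. It was at 159 and 156 FPKM with the control vector and at 173 and 168 FPKM with PRDM16. Both PRDM16 libraries were higher, and each group was tight. The means were 157 ± 1.83 and 171 ± 3.76 FPKM (SD, n = 2 each), 8.44% higher. The log2 change of 0.12 (SE 0.08, 95% interval -0.10 to 0.33) did not pass (limma adjusted p = 0.69), and it stayed between 0.09 and 0.14 when each library was left out and was 0.08 after quantile normalization. The gene lies on chromosome 16 at 69706996 to 69726951, minus strand, with an antisense gene overlapping it.

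HMOX1, the inducible heme oxygenase, was at 57.3 and 74.7 FPKM with the control vector and at 74.9 and 75.8 FPKM with PRDM16. A single library, control vector replicate 1, was low, and the other 3 were within 74.7 to 75.8 FPKM. The groups did not overlap, but by the margin between 74.7 and 74.9 FPKM only. The log2 change of 0.20 (SE 0.15, 95% interval -0.19 to 0.59, limma adjusted p = 0.69) was 0.01 without control vector replicate 1 and 0.39 without the other control. HMOX1 lies on chromosome 22 at 35380361 to 35394214, plus strand, with no overlapping gene in the annotation.

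**Figure D2:**
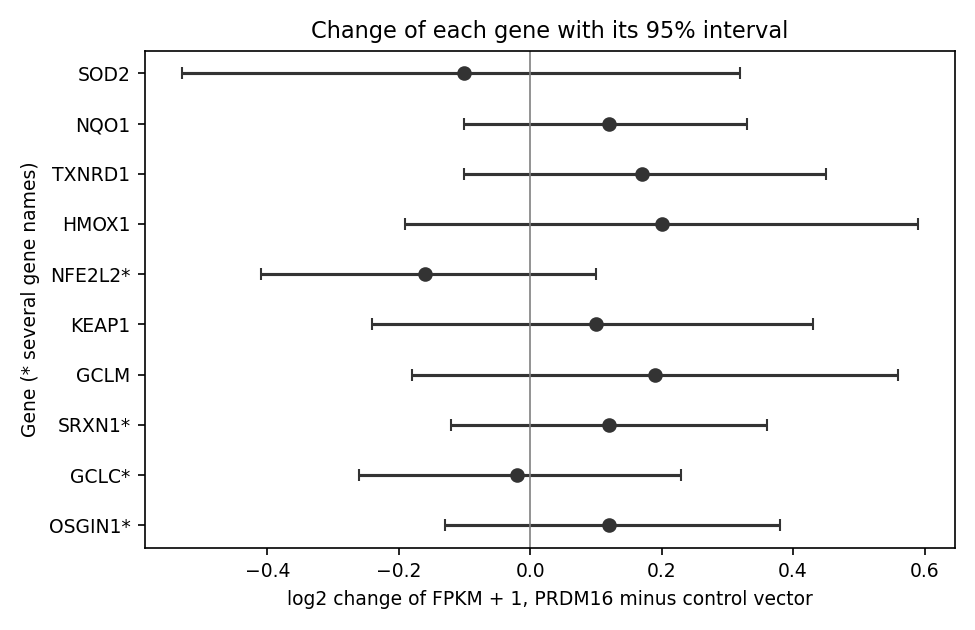
Log2 change of FPKM + 1, PRDM16 minus control vector, for the 10 genes, as points with unadjusted 95% intervals from the limma fit. Every interval spans 0, the lowest bound is -0.53 (SOD2) and the highest 0.59 (HMOX1).

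Glutamate-cysteine ligase makes the first step of glutathione synthesis, and its subunits were measured separately. GCLM, its modifier subunit, was at 29.9 and 24.3 FPKM with the control vector and at 29.1 and 32.9 FPKM with PRDM16. Its groups overlapped, with control vector replicate 2 the lowest. The log2 change was 0.19 (SE 0.14, 95% interval -0.18 to 0.56, limma adjusted p = 0.69), and it was 0.05 when control vector replicate 2 was left out and 0.33 when the other control was. GCLC, the catalytic subunit, was at 16.4 and 17.3 FPKM against 16.2 and 17 FPKM. The 4 libraries lay within 16.2 to 17.3 FPKM for GCLC, with a log2 change of -0.02 (SE 0.09, 95% interval -0.26 to 0.23, limma adjusted p = 0.958). That value was 0.02 without control vector replicate 2 and 0.02 without PRDM16 replicate 1. The difference between the subunits was not tested. GCLM lies on chromosome 1 at 93885205 to 93909456 and GCLC on chromosome 6 at 53497341 to 53616970, both on the minus strand. The GCLC locus also names a gene known only by a clone name. In the annotation, GCLC overlaps AL033397.1 on the same strand and AL033397.2 on the other, and GCLM overlaps no gene.

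In the thiol-reducing branch, TXNRD1, the cytosolic thioredoxin reductase, was at 154 and 143 FPKM with the control vector and at 179 and 157 FPKM with PRDM16. PRDM16 replicate 1 was the high library, while PRDM16 replicate 2 was only just above the higher control. The log2 change was 0.17 (SE 0.10, 95% interval -0.10 to 0.45, limma adjusted p = 0.689), from 0.08 without PRDM16 replicate 1 to 0.27 without PRDM16 replicate 2. TXNRD1 lies on chromosome 12 at 104215779 to 104350305, plus strand, and its annotation overlaps EID3 and an antisense gene.

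SRXN1, which encodes sulfiredoxin, the enzyme that repairs over-oxidised peroxiredoxins, was at 22 and 20.8 FPKM against 22.8 and 23.9 FPKM. Its groups did not overlap, and its log2 change was 0.12 (SE 0.09, 95% interval -0.12 to 0.36, limma adjusted p = 0.693), or 0.08 without control vector replicate 2. The locus also names SCRT2 and a gene known only by a clone name. SRXN1 itself lies on chromosome 20 at 646615 to 653370, minus strand, where the protein-coding gene AL121758.1 overlaps it on the same strand.

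OSGIN1, an oxidative stress-induced growth inhibitor gene, was at 9.96 and 10.2 FPKM against 10.7 and 11.5 FPKM. Both PRDM16 libraries were higher, with a log2 change of 0.12 (SE 0.10, 95% interval -0.13 to 0.38, limma adjusted p = 0.698), or 0.07 without PRDM16 replicate 2. Its locus also names MLYCD, the gene of malonyl-CoA decarboxylase, so neither gene's own level can be read from it. OSGIN1 is annotated on chromosome 16 at 83948282 to 83966332 and MLYCD upstream at 83899126 to 83927026, both on the plus strand. The protein-coding gene AC009119.2 overlaps OSGIN1 on the same strand.

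SOD2 was at 383 and 516 FPKM with the control vector and at 412 and 416 FPKM with PRDM16. The controls were the lowest and the highest library, and the PRDM16 libraries sat between them. The means were 449 ± 94.6 and 414 ± 2.96 FPKM (SD, n = 2 each), a log2 change of -0.10 (SE 0.16, 95% interval -0.53 to 0.32, limma adjusted p = 0.822). It was 0.11 when control vector replicate 2 was left out and -0.32 when the other control was. The annotation holds 2 overlapping records for SOD2 on chromosome 6, minus strand, at 159669057 to 159745186 and 159679119 to 159762529, and WTAP and ACAT2 overlap the latter on the other strand.

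**Figure D3:**
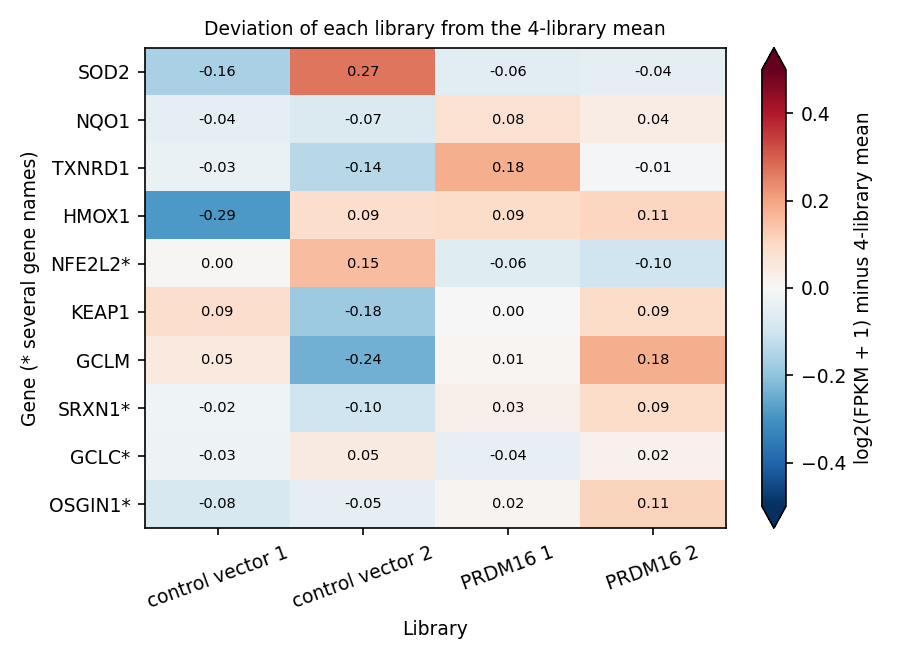
Deviation of each library from the 4-library mean, in log2(FPKM + 1), for the 10 genes (rows) and the 4 libraries (columns), with red above and blue below the mean. Control vector replicate 2 is the lowest library for 5 genes and the highest for 3.

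Much of the variation among the 10 genes was between the control libraries. The median absolute log2 difference between the control vector libraries was 0.127 over the 10 genes, against 0.0657 between the PRDM16 libraries and a median absolute log2 change of 0.122 between the groups. Over all tested loci these values were 0.19, 0.0979 and 0.133. Control vector replicate 2 was lowest for NQO1, TXNRD1, KEAP1, GCLM and SRXN1 and highest for NFE2L2, GCLC and SOD2. PRDM16 replicate 2 was highest for HMOX1, KEAP1, GCLM, SRXN1 and OSGIN1. The part played by whatever sets control vector replicate 2 apart was not tested.

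The wider antioxidant system was described with a list of 71 further genes in 7 groups by role. All 71 were found, in 72 loci, of which 55 with a single gene name and 7 with several names were tested and 10 were below the filter. None of the 55 passed (limma), and 4 of the 55 had an unadjusted p under 0.05, beside 6.12% of all tested loci. Of the 55, 19 had a higher and 36 a lower mean, and the median log2 change was -0.06. Both PRDM16 libraries were higher at 8 (14.5%) and lower at 13 (23.6%), beside 21.1% and 20.3% of all tested loci. The median was 0.0011 without control vector replicate 2, which was the highest or lowest library at 45 of the 55 (81.8%), as it was at 72.8% of all tested loci.

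**Figure D4:**
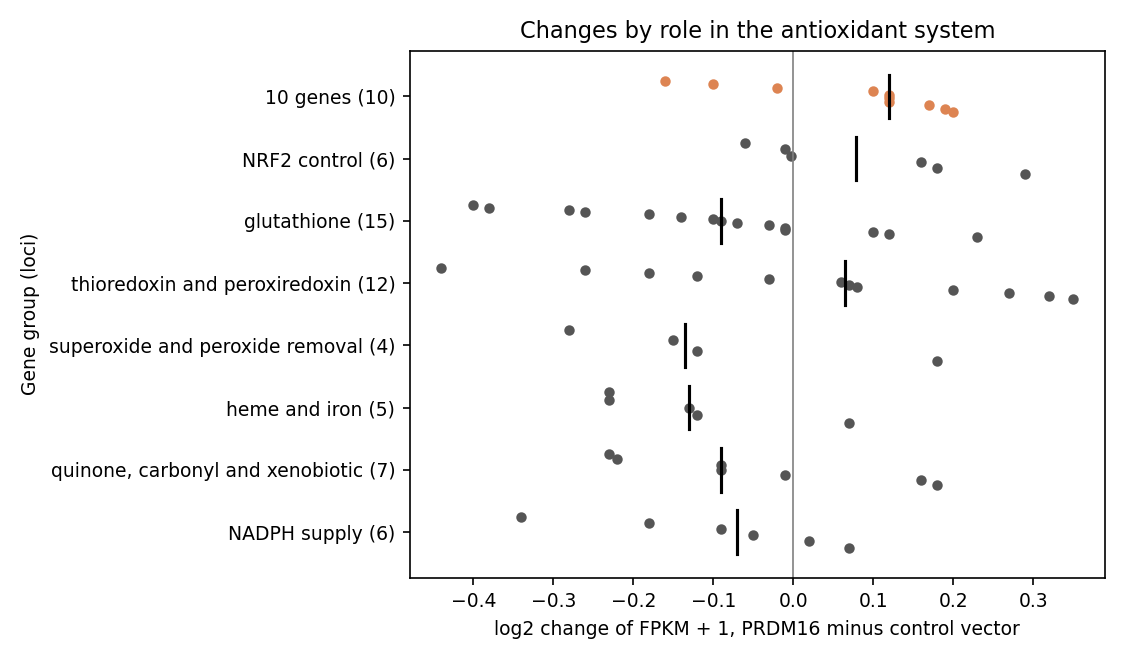
Log2 changes (PRDM16 minus control vector) of the 10 genes (orange) and of the single-name loci of the 7 further groups (grey), with a black line at each group's median and the number of loci in brackets. The values of every group lie on both sides of 0.

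In the glutathione group, 3 of 15 tested loci had a higher and 12 a lower mean. GSTO1, an omega class glutathione transferase, was at 122 and 115 FPKM with the control vector and at 138 and 141 FPKM with PRDM16, without overlap. GSTP1, the pi class enzyme, was at 115 and 104 FPKM against 94.9 and 86.2 FPKM, in the opposite direction. Their log2 changes were 0.23 (SE 0.08) and -0.28 (SE 0.10), each with a limma adjusted p of 0.689. SLC7A11, the cystine importer, was at 7.82 and 19.4 FPKM against 11.3 and 7.43 FPKM, with control vector replicate 2 far above the rest. Its log2 change of -0.40 (SE 0.45) was 0.21 without that library. GSR, which recycles oxidised glutathione, was at 30.6 and 24 FPKM against 23 and 24.8 FPKM, and its log2 change of -0.18 was -0.01 without control vector replicate 1, the high library.

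In the thioredoxin and peroxiredoxin group, 7 of 12 tested loci had a higher and 5 a lower mean. TXN, the substrate of TXNRD1, was at 227 and 189 FPKM against 239 and 261 FPKM, and PRDX1, a cytosolic peroxiredoxin, at 852 and 647 FPKM against 889.9 and 969 FPKM. Both had groups that did not overlap, with log2 changes of 0.27 (SE 0.12) and 0.32 (SE 0.15) and a limma adjusted p of 0.689. When control vector replicate 2 was left out they were 0.14 and 0.12, and when the other control was, 0.40 and 0.52. TXNRD2, the mitochondrial reductase, pointed the opposite way, with 26.4 and 31.1 FPKM against 24.2 and 23.5 FPKM (log2 change -0.26, and -0.14 without control vector replicate 2). Control vector replicate 2 was the highest or the lowest library at all 12 of these loci.

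Among genes that remove superoxide and peroxide, 1 of 4 had a higher and 3 a lower mean. SOD1, the cytosolic superoxide dismutase, was at 397 and 317 FPKM against 393 and 414 FPKM, in overlapping groups. CAT, which encodes catalase, was at 21.7 and 26 FPKM against 20.6 and 18.2 FPKM, with a log2 change of -0.28 (SE 0.13, limma adjusted p = 0.689). It was -0.15 when control vector replicate 2 was left out and -0.41 when the other control was, and the log2 change of SOD1, 0.18, was 0.02 and 0.35 in the same settings.

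For heme and iron, 1 of 5 tested loci had a higher and 4 a lower mean. BLVRB, a biliverdin reductase that acts after heme oxygenase, was at 67.5 and 78.3 FPKM against 63.3 and 60.4 FPKM, and its log2 change of -0.23 was -0.12 without control vector replicate 2. FTH1, the ferritin heavy chain, was at 769.7 and 1091.4 FPKM against 783 and 781 FPKM. Only control vector replicate 2 was high for FTH1, and its log2 change of -0.23 was 0.02 without that library. FTH1 has processed pseudogenes that could share its reads, so its level is uncertain. HMOX2, the constitutive heme oxygenase, was listed at 0 in all 4 libraries. It was named after its values were seen, and a listed 0 can be a failed estimate.

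In the quinone, carbonyl and xenobiotic group, 2 of 7 tested loci had a higher and 5 a lower mean. AKR1B1, aldose reductase, was at 1889.2 and 1879.7 FPKM with the control vector and at 1662.0 and 1570.8 FPKM with PRDM16. Both groups were tight and did not overlap, and the log2 change of -0.22 (SE 0.07) had the smallest unadjusted p of the list (0.0316) and a limma adjusted p of 0.689. After quantile normalization that change was -0.10. PIR, a nuclear iron-binding protein, was at 11.8 and 10.4 FPKM against 9.89 and 8.68 FPKM, and its log2 change of -0.23 was -0.15 without control vector replicate 1. AKR1C1, measured with AKR1C3, was at 3.13 and 4.37 FPKM against 3.42 and 4.08 FPKM.

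For NADPH supply, 2 of 6 tested loci had a higher and 4 a lower mean. Those 4 (66.7%) were lower in both PRDM16 libraries, beside 20.3% of all tested loci. The median log2 change of the 6 was only -0.07, and 1 of the 6 had an unadjusted p under 0.05 (limma), beside 6.12% of all tested loci. The share rests on 6 loci in 1 of 7 groups chosen with earlier results known, and was not tested. IDH1, the cytosolic isocitrate dehydrogenase, was at 56 and 65.6 FPKM against 48.8 and 46.5 FPKM, with a log2 change of -0.34 (SE 0.11, unadjusted p = 0.0333, limma adjusted p = 0.689).

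**Figure D5:**
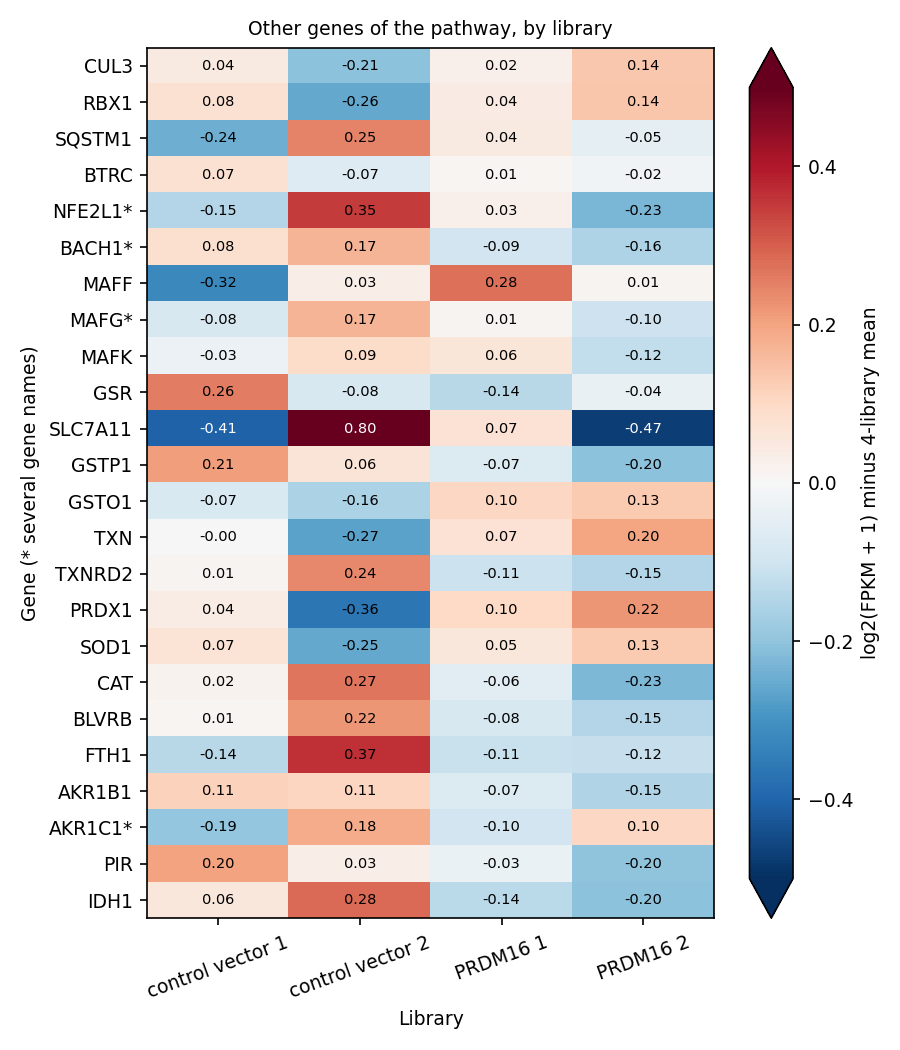
Deviation of each library from the 4-library mean, in log2(FPKM + 1), for the 24 further genes named in the text. Control vector replicate 2 is far from the others for SLC7A11, FTH1, NFE2L1 and PRDX1. AKR1B1, TXNRD2, IDH1, GSTP1, CAT, BLVRB, PIR and BACH1 have both controls above both PRDM16 libraries.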

How the data were processed

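RNA-seq libraries of 786-O cells (2 with control vector, 2 with PRDM16 lentivirus) were grouped by their labels. Per the submitters' processing notes, the tools were Cuffdiff, Cufflinks 2.2.1, TopHat2 2.1.0 and Trim Galore, and the build was hg38. No source used here gives the annotation, filters or strand. The deposited values were read as FPKM from the tools and because they are not whole numbers and sum neither to counts nor to TPM. The header names no unit. Fragment numbers are unknown, so no counting interval is given.

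Loci with a mean of at least 1 FPKM were fitted on log2(FPKM + 1) with limma 3.58.1 in R 4.3.3 (variance trend, two-sided, Benjamini-Hochberg over 13246 loci, threshold 0.05). This scale understates changes of low genes. Intervals are unadjusted. On simulated data, the check was only that the mean estimates recovered the log2 changes put in. The error rate and power of the test are not given. Relative depth is the most frequent ratio among loci under 0.3 FPKM. Tables used Python 3.11.15, numpy 2.4.6, pandas 2.3.3 and matplotlib 3.10.9. Positions are from GENCODE 29, promoters from RefSeq.

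The 10 genes, the lists and the tests were chosen with earlier results of these data known. Named genes are the 10, every NRF2 control gene, the 2 smallest p of each other group, and GSR, SLC7A11, TXN, PRDX1, SOD1, CAT, FTH1 and AKR1C1. Another gene that the rule takes is not reported here. The alternatives covered pseudocounts, filters, scalings, variance settings, a replicate block and leaving out each library.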

Additional observations from a re-analysis of the deposited data

How the results depend on the processing

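None of the 10 genes and none of the 55 further loci (50 at a mean of at least 5 FPKM) passed in any of the settings run, which were 10 with all libraries (pseudocount 0.1 or 0.5, no filter or a mean of at least 5 FPKM, 3 scalings, 2 variance settings and the replicate block) and 4 that left out a library each. All 10 genes kept their direction with all libraries, and 7 of 10 did when each library was left out. The ranges of log2 change then were -0.32 to 0.11 for SOD2, -0.05 to 0.02 for GCLC and -0.04 to 0.23 for KEAP1. Of the 24 other named genes, 23 kept their direction with all libraries, the exception being BTRC (0.02 after quantile normalization). With a library left out, 16 of the 24 did, and the others ranged as follows: -0.25 to 0.24 for SQSTM1, -0.08 to 0.06 for BTRC, -0.45 to 0.05 for NFE2L1, -0.22 to 0.03 for MAFG, -0.15 to 0.03 for MAFK, -1.0 to 0.21 for SLC7A11, -0.48 to 0.02 for FTH1 and -0.18 to 0.20 for AKR1C1. The median log2 change of the 10 genes was 0.08 to 0.12 with a library left out, and that of the 55 loci was -0.09 to 0.0011.

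The number of loci called over the whole table was 3. This became 6 without a variance trend, 5 with a pseudocount of 0.1 and 5 with robust variances. It became 1 without the filter and 1 at a threshold of 0.01, and 16 to 39 with a library left out, where the lone library is assumed to vary like the other group. With the replicate number as a block it was 5. The deviations of same-numbered libraries from their group means had a correlation of -0.0584 over 13246 loci. With 2 libraries a group, this cannot show whether the numbers pair libraries, and the labels give only the numbers. Including loci with several names (62), an alternative chosen after seeing the data, gave the wider list a median of -0.07 and no call. edgeR and DESeq2, listed for whole-number counts, were not run on these values. With 2 libraries a group, the 95% intervals of the 10 genes reached from -0.53 to 0.59.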
